A study of Homo sapiens with 2 samples.

Results

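A set of 8 transcription factors of the endoderm and gut lineage were followed in RNA-seq data from human embryonic stem cell cultures: FOXA1, FOXA2, FOXA3, SOX17, HNF4A, HNF4G, CDX2 and RFX6. They were matched by gene name, from a list drawn up with earlier results of these data known, and each of the 8 names matched 1 of the 55797 genes in the deposited tables. Both libraries came from the H1 line, an established human embryonic stem cell line, differentiated in steps to Stage 6, a mixed culture that contains insulin-expressing cells. One library was made from live cells, which were neither fixed nor stained. The other was made from processed cells, which were fixed in 4% paraformaldehyde, permeabilized, stained with antibodies and passed through the sorter without selection. The comparison asks whether this handling, called MARIS, changes the representation of each transcript. RNA isolation also differed, since live RNA was purified with an RNeasy kit and processed RNA with a modified RecoverAll kit, so handling and kit cannot be told apart. There was 1 library per condition. No difference below therefore has a replicate check in these data, and no p-value is given. The paper also compared live and processed Stage 6 cells in replicate, by qRT-PCR and on microarrays. On the arrays it reported that no gene differed consistently. Those measurements were not examined here.

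Definitive endoderm is the germ layer that forms the gut tube and its outgrowths, including liver and pancreas. FOXA proteins are pioneer factors that bind their sites in closed chromatin and make liver, pancreas and gut enhancers accessible. SOX17 marks definitive endoderm as it forms, HNF4A and HNF4G are related nuclear receptors of liver, gut and pancreas, CDX2 specifies the intestine, and RFX6 acts downstream of NEUROG3 in the endocrine cells of pancreas and gut.

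Expression was given as FPKM, the fragments of a gene scaled to the length of its exons and to the fragments of the library, so that levels can be set side by side between genes. This holds only as far as the lengths used fit the transcripts present. Those lengths are not known here, and the bounds may not cover errors in them. The deposited lower and upper bounds describe the precision of 1 library, and their confidence level is not stated in the sources used here. FPKM summed to 510713 in live and 499398 in processed cells, and 16004 and 15957 genes reached an FPKM of 1. All 8 factors were above this level in both libraries, with status OK. Their bounds lay within 1.75% to 8.85% of the value in live cells and within 2.19% to 7.18% in processed cells. The read number behind each value is unknown. In a mixed culture, fewer cells of a type and less RNA per cell cannot be told apart. Insulin (INS) was present at 98.3 and 121 FPKM in live and processed cells.

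FOXA1 and FOXA2 were by far the most abundant of the 8 factors, and SOX17 and HNF4G the least. In live cells the order was FOXA1, FOXA2, HNF4A, CDX2, RFX6, FOXA3, SOX17 and HNF4G, from 126 down to 4.06 FPKM. CDX2 and RFX6 could not be separated there, nor could SOX17 and HNF4G, because the bounds of these neighbours overlapped. In processed cells the order was the same except that CDX2 stood above HNF4A, and the bounds of all neighbours were separate. FOXA1 ranked 525th among the 16004 live genes that reached an FPKM of 1 and 650th among the 15957 such genes of processed cells, whereas HNF4G ranked 11633rd and 12020th. The summed FPKM of the 8 factors was 256 in live and 217 in processed cells.

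**Figure D1:**
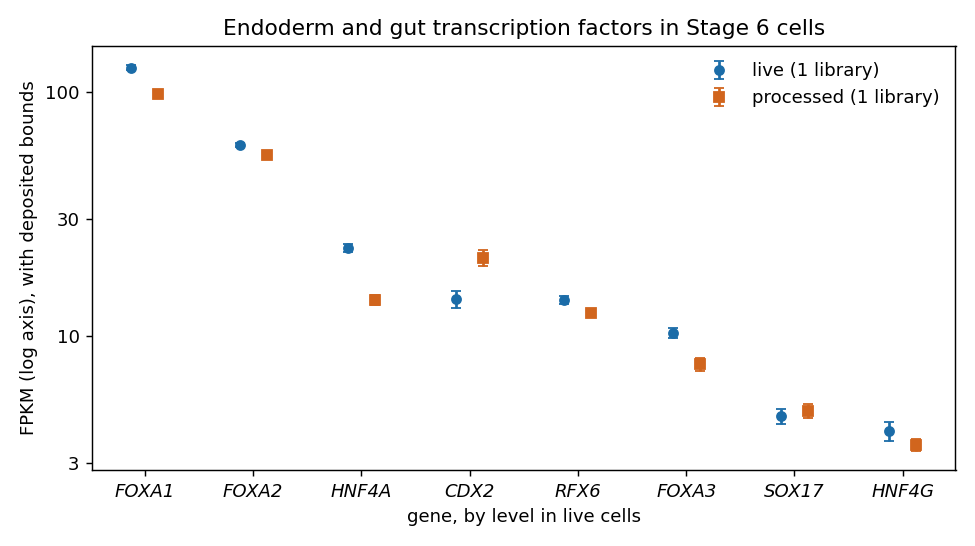
FPKM of the 8 transcription factors on a log axis, in live (circles) and processed cells (squares), with the deposited lower and upper bounds as bars and 1 library per condition. FOXA1 and FOXA2 are highest in both libraries, and CDX2 and HNF4A exchange places between them.

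Each ratio is the log2 of processed over live expression after adding 1 to both FPKM values, which understates differences of low genes. The range after each ratio combines the opposite bounds of the 2 libraries and covers the precision of these libraries only. Of the 8 factors, 6 were lower and 2 were higher in processed cells, and their log2 ratios had a median of -0.16. Over the 17326 genes at or above 1 FPKM in either library, 58.3% were lower and the median was -0.092. None of the 8 was past 2-fold in either direction, where 6.57% of these genes were past 2-fold higher and 6.19% past 2-fold lower. The bounds did not overlap for 6 factors, 5 of them lower and 1 higher in processed cells. Separate bounds were common in general, at 43.7% of genes in the lower and 28.1% in the higher direction, over the same 17326 genes. The typical gene was slightly lower in processed cells. Over the 14635 genes at or above 1 FPKM in both libraries, the median ratio without a pseudocount was 0.932, or -0.10 on the log2 scale. When processed values were divided by this ratio, the bounds of FOXA2 and RFX6 overlapped and those of 4 factors stayed separate. Of the 17326 genes, 34.8% were then separate in the higher and 35.7% in the lower direction.

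**Figure D2:**
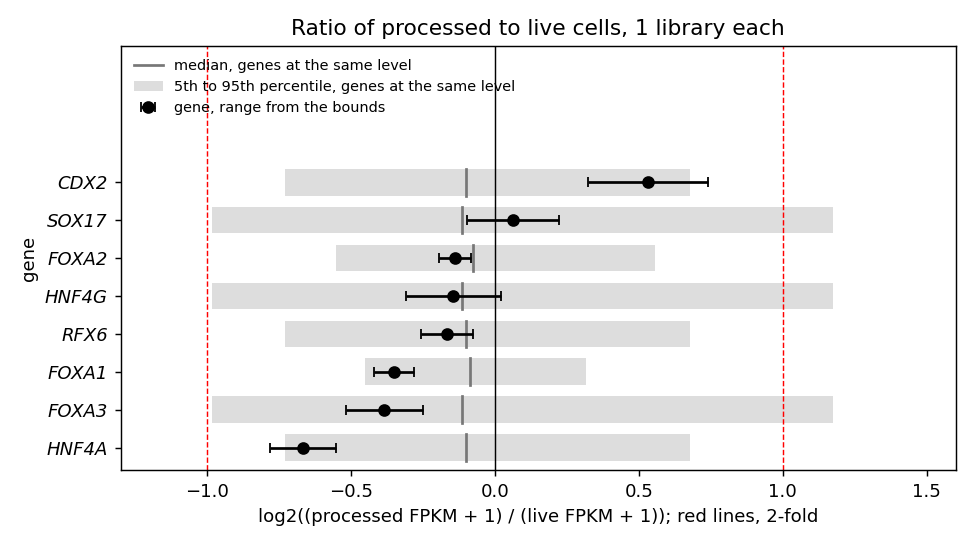
Log2 ratio of processed to live FPKM (pseudocount 1) for the 8 factors, as points with the range given by the bounds, over gray bars from the 5th to the 95th percentile of genes in the same class of mean FPKM and a gray line at their median. All 8 points lie inside the gray bars and inside the red 2-fold lines, with HNF4A nearest to the lower end and CDX2 nearest to the upper end of its bar.

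The FOXA genes encode 3 closely related forkhead proteins, and reads from similar stretches of their transcripts could in principle be given to the wrong gene. Over the whole reference transcripts the longest run shared by FOXA1 and FOXA2 was 48 nt, and both shared at most 29 nt with FOXA3. These runs are shorter than a read of 80 nt. No run of 80 nt or more in the reference transcripts of the 8 factors was found in an annotated transcript of any other gene, on either strand.

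FOXA1, on chromosome 14 from 38059189 to 38069245, was measured at 126 FPKM in the live library (bounds 123 to 129) and at 98.4 FPKM in the processed library (95.9 to 101). It was thus lower in processed cells, at 0.783 times the live value, with a log2 ratio of -0.35 (-0.42 to -0.28). Of the 429 genes whose mean FPKM was between 100 and 300, 11.7% had a ratio at or below that of FOXA1. In the authors' annotation the FOXA1 locus overlaps TTC6, a gene on the opposite strand, by 4194 bases. TTC6 was at 6.90 FPKM in live cells (6.17 to 7.62) and at 11.4 FPKM after processing (10.4 to 12.5), a log2 ratio of 0.66. The 5′ end of the reference FOXA1 transcript lies 598 bases outside the TTC6 locus. How fragments in the overlap were shared between the genes was not tested.

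FOXA2, on chromosome 20 from 22561643 to 22566093, was at 60.8 FPKM (59.7 to 61.8) in live and 55.1 FPKM (53.9 to 56.3) in processed cells. Its log2 ratio was -0.14 (-0.19 to -0.082), near the median of -0.077 of the 2214 genes whose mean FPKM was between 30 and 100. LINC00261, a long non-coding RNA on the same strand, lies 2363 bases downstream of FOXA2. It had more FPKM than FOXA2 itself, at 96.2 (95.3 to 97.1) in live and 89.2 (88.3 to 90.1) in processed cells, with a log2 ratio of -0.11. The level of LINC00261 was 1.58 times that of FOXA2 in live cells (1.54 to 1.63 from the bounds) and 1.62 times in processed cells (1.57 to 1.67), and these ranges overlapped.

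FOXA3, on chromosome 19 from 46367518 to 46377054, was the lowest of the 3, with 10.3 FPKM (9.80 to 10.8) in live and 7.64 FPKM (7.21 to 8.08) in processed cells. The log2 ratio was -0.38 (-0.52 to -0.25), and 28.8% of the 4925 genes whose mean FPKM was between 3 and 10 had a ratio this low or lower. Of its neighbours within 10 kb, SYMPK had a log2 ratio of -0.12 (22.6 and 20.8 FPKM) and IRF2BP1 of -0.035 (16.2 and 15.8 FPKM).

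Together the FOXA genes summed to 197 FPKM in the live and 161 FPKM in the processed library. FOXA1 made up 63.9% of this sum in live cells (62.8% to 64.9% from the bounds) and 61.0% in processed cells (59.8% to 62.2%). The share of FOXA2 was 30.9% in live (29.98% to 31.8%) and 34.2% in processed cells (33.1% to 35.3%), and that of FOXA3 was 5.23% and 4.74%. FOXA1 stood at 2.07 times FOXA2 in live cells (1.98 to 2.16) and 1.78 times in processed cells (1.70 to 1.87). The 3 genes kept their order in both libraries, while the ranges for FOXA1 over FOXA2 did not overlap. These ranges cover the precision of the libraries only. Bounds of single genes were separate for 28.1% of all genes tested in the higher and 43.7% in the lower direction. How often such ranges separate for other pairs of genes was not tested.

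SOX17, the HMG-box factor of definitive endoderm (chromosome 8, 55370495 to 55373448), was at 4.67 FPKM in live cells (4.35 to 4.998) and at 4.92 FPKM in processed cells (4.60 to 5.24). The bounds overlapped, and the log2 ratio of 0.062 had a range from -0.098 to 0.22. A difference was not detectable at this precision. FOXA1 stood at 26.9 times SOX17 in live cells and 20.0 times in processed cells. SOX17 is also a gene of endothelial cells, and 9 of 10 endothelial markers were matched by name. These 9 were low, with a summed FPKM of 5.23 in live and 6.43 in processed cells and no value above 1.21 in live cells. VWF, which encodes von Willebrand factor, was at 0.347 and 0.288 FPKM, and CDH5, the endothelial cadherin, at 0.222 and 0.312 FPKM. The 3 markers that reached an FPKM of 1 did so in 1 library each, ERG in processed cells (0.0802 and 3.51 FPKM) and KDR (1.21 and 0.857 FPKM) and ESAM (1.07 and 0.505 FPKM) in live cells. The part of endothelial cells in the SOX17 values was not tested.

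HNF4A had the lowest ratio of the 8 factors. This nuclear receptor gene (chromosome 20, 42984340 to 43060030) was at 22.9 FPKM in live cells (21.99 to 23.8) and at 14.1 FPKM after processing (13.4 to 14.7), which is 0.614 times the live value. The log2 ratio was -0.67 (-0.78 to -0.55), and 6.62% of the 4942 genes whose mean FPKM was between 10 and 30 had a ratio at or below it. After division by the median ratio it was -0.57, with bounds still separate. The reference lists 14 protein-coding HNF4A transcripts, of which 4 start between 42984339 and 42984445 and 10 start between 43029879 and 43030041. These groups of starts, 45.5 kb apart, correspond to the distal and the proximal HNF4A promoter, and the gene-level FPKM sums over both. The 4 genes annotated within the HNF4A locus had at most 0.0382 FPKM in either library.

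HNF4G, the paralog of HNF4A (chromosome 8, 76320149 to 76479078), was at 4.06 FPKM in live cells (3.70 to 4.42) and at 3.57 FPKM in processed cells (3.37 to 3.77). Its bounds overlapped, at a log2 ratio of -0.15 (-0.31 to 0.021). HNF4A and HNF4G shared no run longer than 17 nt in their reference transcripts. HNF4A was 5.63 times as high as HNF4G in live cells (4.98 to 6.42) and 3.93 times in processed cells (3.56 to 4.35). Its share of the summed FPKM of the pair was 84.9% in live (83.3% to 86.5%) and 79.7% in processed cells (78.1% to 81.3%). These ranges did not overlap, but how often they separate for other pairs of genes was not tested.

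**Figure D3:**
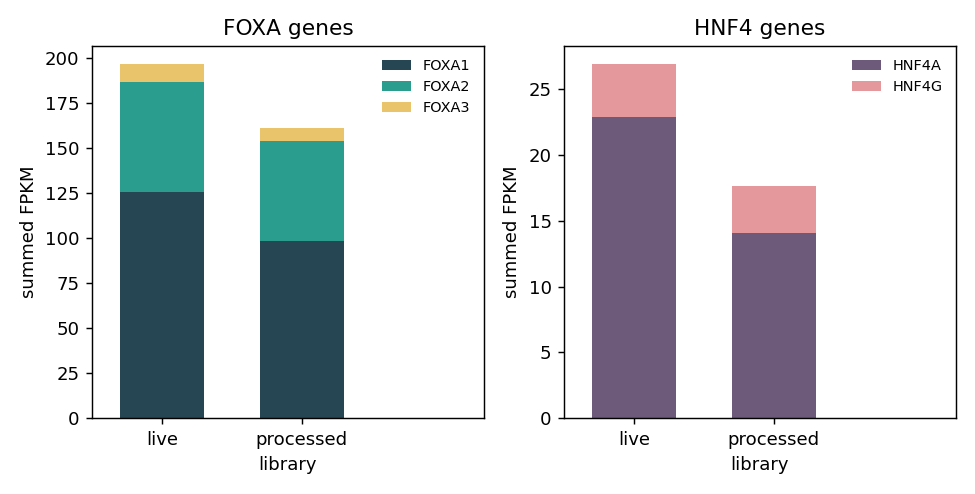
Summed FPKM of FOXA1, FOXA2 and FOXA3 (left) and of HNF4A and HNF4G (right), stacked by gene, in the live and the processed library. The FOXA sum is 197 and 161, and the HNF4 sum 26.9 and 17.6.

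Genes known as targets of HNF4 in liver and gut were mostly higher in processed cells. All 10 listed targets reached an FPKM of 1, and 8 were higher and 2 lower after processing, at a median log2 ratio of 0.25 against -0.092 for all genes tested. Bounds were separate for 7 targets in the higher and 1 in the lower direction, beside 28.1% and 43.7% of all genes tested. Of all genes tested, 58.3% were lower. FABP1, the liver fatty acid-binding protein, was past 2-fold, at 11.3 and 26.1 FPKM in live and processed cells (log2 ratio 1.14). SERPINA1, which encodes alpha-1-antitrypsin, was the highest at 1496 and 1579 FPKM (0.077). APOB, the large apolipoprotein of lipoprotein particles, had the lowest ratio, at 7.47 and 5.84 FPKM (-0.31). Of the 7 targets higher with separate bounds, 5 have reference transcripts under 1000 nt. These are APOA2 (474 nt, log2 ratio 0.57), FABP1 (501 nt, 1.14), APOC3 (535 nt, 0.49), TTR (616 nt, 0.23) and APOA1 (899 nt, 0.28). The transcript of APOB has 14121 nt. The remaining targets were APOH (1174 nt, -0.077), APOA4 (1471 nt, 0.70), SERPINA1 (3006 nt, 0.077) and MTTP (3920 nt, 0.032). Shorter genes had higher ratios in these data in general, by the length classes described last. The median log2 ratio of the class under 1000 nt was 0.0076. The part of transcript length in the target ratios was not tested.

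CDX2 was the factor with the highest ratio. This homeobox gene of the intestine (chromosome 13, 28535826 to 28545276) was at 14.1 FPKM in live cells (13.0 to 15.3) and at 20.9 FPKM after processing (19.4 to 22.4), or 1.48 times the live value. The log2 ratio was 0.53 (0.32 to 0.74), and 8.22% of the genes in the same class of mean FPKM as HNF4A had a ratio at or above it. Its neighbour LINC00543, 6319 bases away on the other strand, had overlapping bounds at 3.45 FPKM (3.16 to 3.73) and 3.66 FPKM (3.36 to 3.97). The opposite differences of CDX2 and HNF4A exchanged their order. HNF4A stood at 1.62 times CDX2 in live cells (1.44 to 1.83) and at 0.673 times CDX2 in processed cells (0.600 to 0.757).

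Genes of intestinal epithelium were few and mostly had overlapping bounds. Of 12 such genes, 6 reached an FPKM of 1, and 4 of these 6 had bounds that overlapped between the libraries. Of the 6, 5 were lower after processing and 1 higher, at a median log2 ratio of -0.11, beside 58.3% lower and -0.092 for all genes tested on the same filter. Bounds were separate for 2 in the lower direction, beside 43.7% of all genes. In both libraries 5 reached it, with 4 lower and 1 higher and a median of -0.065. VIL1, which encodes the microvillus protein villin, was the highest at 54.6 and 54.1 FPKM (-0.014). CDH17, an intestinal cadherin that reached an FPKM of 1 in live cells only, was at 2.25 and 0.886 FPKM (-0.78), and LGR5, a stem cell receptor, had the highest ratio at 2.58 and 2.99 FPKM (0.16). Among the other 6 genes, MUC2 was at 0.174 FPKM in live cells and listed at 0 in processed cells, and FABP2 was listed at 0 in both, so that several defining genes of mature intestine were at or near 0. CDX1, the intestinal relative of CDX2, was at 0.589 and 0.428 FPKM, and CDX4 was listed at 0 in both libraries.

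RFX6 (chromosome 6, 117198375 to 117253326) encodes a winged-helix factor of endocrine cells. Its FPKM was 14.04 (13.6 to 14.5) in live and 12.4 (12.0 to 12.8) in processed cells. The log2 ratio was -0.17 (-0.26 to -0.076), and 42.9% of the genes at its level had a ratio this low or lower. After division by the median ratio it was -0.072 with overlapping bounds. CDX2 and RFX6 were equal within their bounds in live cells, with a ratio of 1.01 (0.897 to 1.13), and CDX2 stood at 1.68 times RFX6 (1.51 to 1.87) in processed cells.

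The relatives of RFX6, SOX17 and CDX2 differed in both directions. Of 11 relatives, 6 reached an FPKM of 1 in both libraries, with 2 higher and 4 lower after processing and a median log2 ratio of -0.32. Bounds were separate for all 6. Over all genes at an FPKM of 1 in either library, 58.3% were lower and the median was -0.092. Bounds were separate for 28.1% of them in the higher and 43.7% in the lower direction. On that filter the median of the relatives was -0.25. RFX5, a regulator of MHC class II genes, was the highest at 20.9 and 17.3 FPKM (-0.25). RFX2 had the highest ratio at 7.57 and 15.3 FPKM (0.93), and RFX3, which like RFX2 acts in cells that form cilia, the lowest at 7.91 and 4.89 FPKM (-0.60). SOX7 reached an FPKM of 1 in processed cells only, at 1.37, and its live value of 0.295 FPKM carried the status FAIL.

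The 12 pancreatic endocrine genes, among which RFX6 acts, were split evenly, with 6 higher and 6 lower in processed cells, 4 with separate bounds in each direction, 0 past 2-fold and a median log2 ratio of 0.053. Of all genes tested, 58.3% were lower, at a median of -0.092. Bounds were separate for 28.1% in the higher and 43.7% in the lower direction, and 6.57% and 6.19% were past 2-fold. NEUROG3, the factor that starts endocrine differentiation upstream of RFX6, was at 10.02 and 7.29 FPKM (-0.41). PAX4, a factor of beta cell fate, had the highest ratio at 9.04 and 13.4 FPKM (0.52). SST, the hormone somatostatin, was the highest at 243 and 266 FPKM (0.13).

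Other factors that pattern the endoderm differed in both directions. All 12 reached an FPKM of 1, with 4 higher and 8 lower in processed cells, 3 and 7 of them with separate bounds, 0 past 2-fold and a median log2 ratio of -0.16, beside 58.3% lower and -0.092 for all genes tested. Of all genes tested, 28.1% had separate bounds in the higher and 43.7% in the lower direction, and 6.57% and 6.19% were past 2-fold. ONECUT1, a factor of liver and pancreas, had the lowest ratio at 31.2 and 17.4 FPKM (-0.81), which is below that of HNF4A. GATA4, a zinc finger factor of endoderm, had the highest at 53.0 and 59.2 FPKM (0.16). SOX9, a factor of progenitor and duct cells, was the most abundant of them at 82.4 and 85.3 FPKM (0.049), between FOXA1 and FOXA2 in both libraries.

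Genes of the earliest endoderm were mostly low. Of 10 such genes, 5 reached an FPKM of 1 in both libraries, all 5 with a lower value after processing, 2 of them with separate bounds, at a median log2 ratio of -0.091. Over all genes at an FPKM of 1 in either library, 58.3% were lower and 43.7% had separate bounds in that direction. CXCR4, a surface receptor of definitive endoderm, was the highest at 28.4 and 27.1 FPKM (-0.064). KIT, another surface receptor, had the lowest ratio at 9.81 and 6.35 FPKM (-0.56). A further 3 reached an FPKM of 1 in processed cells only, namely LHX1 (0.353 and 2.28 FPKM), T (0.292 and 1.15 FPKM) and NODAL (0.804 and 2.02 FPKM). Of 8 genes of foregut and stomach, SOX2 alone reached an FPKM of 1 in both libraries. SOX2, a factor of foregut and of pluripotent cells, was at 52.4 and 47.1 FPKM (-0.15). TFF1 (0.264 and 1.26 FPKM) and BARX1 (0.719 and 1.46 FPKM) reached it in processed cells only, and CLDN18 (1.70 and 0.958 FPKM) in live cells only.

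Markers listed for other cell types were detected, which does not show by itself that such cells were present. The 7 pluripotency markers all reached an FPKM of 1 and summed to 177 and 137 FPKM in live and processed cells, with 5 lower and 2 higher, 5 and 1 of them with separate bounds, and a median log2 ratio of -0.36. LIN28A was the highest at 119 and 88.7 FPKM (-0.42) and held most of these sums, while POU5F1 was at 7.92 and 8.53 FPKM (0.096). NANOG was past 2-fold higher, at 1.27 and 7.34 FPKM (1.88), and TDGF1 (5.54 and 1.46 FPKM, -1.41) and ZFP42 (6.98 and 2.57 FPKM, -1.16) were past 2-fold lower. The 8 stromal markers summed to 99.0 and 93.3 FPKM, with 5 lower and 3 higher, 4 and 2 of them with separate bounds, and a median log2 ratio of -0.25. For both lists, the values over all genes tested were 58.3% lower and a median of -0.092. Bounds were separate for 43.7% in the lower and 28.1% in the higher direction, and 6.19% and 6.57% were past 2-fold. COL1A1, a collagen chain, was the highest at 31.9 and 22.7 FPKM (-0.48), and DCN (4.18 and 12.4 FPKM, 1.37) and PDGFRB (4.26 and 1.17 FPKM, -1.28) were past 2-fold in opposite directions. The part of such cells in the differences of the 8 factors was not tested.

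**Figure D4:**
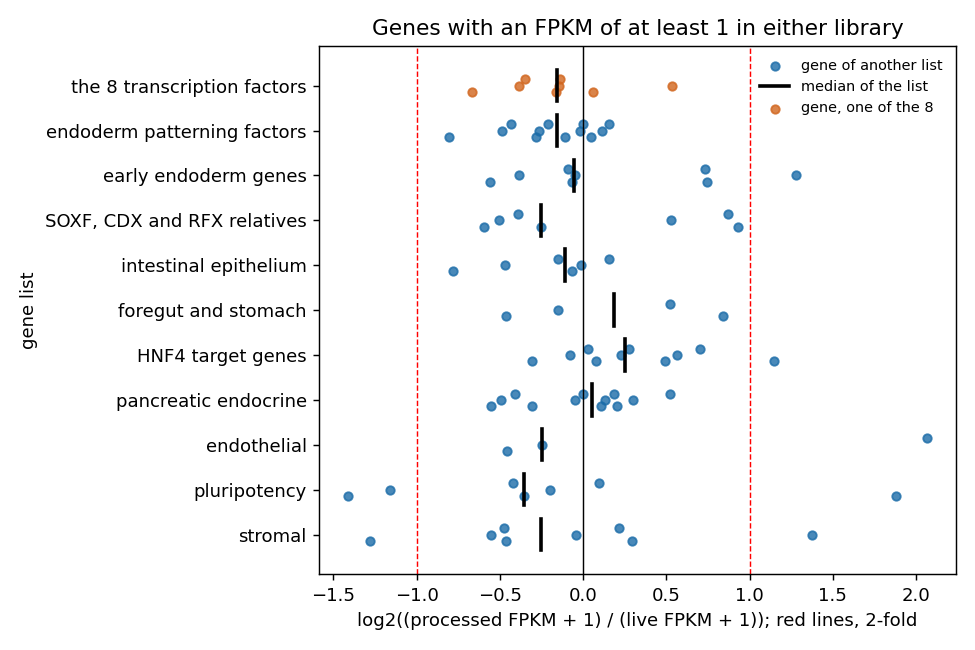
Log2 ratio of processed to live FPKM (pseudocount 1) for the 8 factors and for those genes of 10 other lists that reached an FPKM of 1 in either library, 1 point per gene, with the median of each list as a black bar and 2-fold as red dashed lines. Genes that reached it in 1 library only are included, and they make up the whole endothelial list and most of the foregut and stomach list. The 8 factors lie between -0.67 and 0.53, and the 8 genes outside the 2-fold lines belong to the early endoderm, HNF4 target, endothelial, pluripotency and stromal lists.

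The 8 factors differ in transcript length, a property that moved with the ratio among genes in general. For protein-coding genes that reached an FPKM of 10 in either library, the median log2 ratio was 0.0076 for the 524 genes with a reference transcript under 1000 nt, -0.017 for 1560 genes from 1000 to 2000 nt, -0.099 for 2786 genes from 2000 to 4000 nt and -0.19 for 2773 longer genes. HNF4A, with the lowest ratio, has the longest reference transcript of the 8 at 4645 nt, followed by HNF4G at 4200 nt, FOXA1 at 3509 nt, RFX6 at 3476 nt, CDX2 at 3448 nt, FOXA2 at 2538 nt, SOX17 at 2346 nt and FOXA3 at 1923 nt. CDX2, FOXA1 and RFX6 are of nearly equal length and had log2 ratios of 0.53, -0.35 and -0.17. FOXA3, the shortest, had a ratio of -0.38. The reference extends beyond the authors' locus at the 3′ end by 1455 bases for HNF4A, 771 bases for CDX2 and 432 bases for FOXA1, while the authors' locus extends beyond the reference at the 5′ end by 131955 bases for HNF4G, 4791 bases for FOXA1, 1824 bases for CDX2 and 883 bases for FOXA2. The transcript lengths behind the deposited FPKM are therefore not known here. FOXA and SOX17 transcripts have 2 exons, CDX2 has 3, HNF4A and HNF4G have 10 and RFX6 has 19. The paper reported that processing slightly increased the 3′ coverage bias in its RNA-seq. The part of transcript length in the differences of the 8 factors was not tested.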

How the data were processed

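RNA-seq of 1 live and 1 processed sample of H1-derived Stage 6 cells was used. The authors used STAR 2.2.0c with GENCODE 14 to place paired 80 nt reads on GRCh37/hg19 and deposited FPKM values with bounds per gene, computed with Cufflinks 2.0.2 per the labels (Cuffdiff in the methods). Library depth is not given in the files.

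The tables were joined by gene identifier with Python 3.11.15, numpy 2.4.6 and pandas 2.3.3, and figures were drawn with matplotlib 3.10.9. Locus starts were converted to count from 1. Log2 ratios used a pseudocount of 1, and calls were made over genes that reached an FPKM of 1 in either library. Transcript lengths and shared runs came from GENCODE 44 mapped to GRCh37. Counting was tested on simulated data.

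The 8 factors and the 10 gene lists were chosen with earlier results of these data known. Within a list, the text names the gene with the highest live FPKM, those with the highest and lowest ratio and those past 2-fold. INS, NEUROG3, POU5F1, RFX1 and further genes at or near 0 (VWF, CDH5, MUC2, FABP2, CDX1, CDX4 and SOX7) were named after their values were seen. Genes within 10 kb of a factor are named where they reach an FPKM of 1. PECAM1 was not matched by name. A few items that this rule would name are not reported here. List genes named because they reached an FPKM of 1 in 1 library only, or for transcript length, were chosen after their values were seen. No test was run, since each condition has 1 sample. Alternatives changed the pseudocount, the scaling and the filter on low FPKM.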

Additional observations from a re-analysis of the deposited data

How the results depend on the processing

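Across pseudocounts of 0.1 and 0.01, division by the median ratio and scaling to the same FPKM sum, 6 of the 8 factors stayed lower in processed cells, 0 were past 2-fold, and none of the 8 ratios changed sign. The signs say little about robustness. A pseudocount added to both values cannot change a sign. Each scaling multiplies all processed values by the same number, so only a ratio just below 0 could have changed sign. Of 32 values of single factors under these settings, 29 stayed within the range given by the bounds, and FOXA1, FOXA2 and RFX6 moved outside it after division by the median ratio, to -0.25, -0.038 and -0.072. CDX2 ranged from 0.56 to 0.63 and HNF4A from -0.70 to -0.57. Of the 77 list genes at an FPKM of 1 in either library, 8 were past 2-fold. Over all genes tested, 6.57% were past 2-fold higher and 6.19% lower. The 8 became 14 with a pseudocount of 0.1 and 16 with 0.01. They became 6 with a filter at an FPKM of 1 in both libraries, which removes LHX1 and ERG, and 2 with a filter at an FPKM of 10. These filters leave fewer genes. The share of all genes past 2-fold under these settings was not computed. Some list medians, taken over genes at 1 FPKM in either library, changed sign. That of early endoderm genes went from -0.057 to 0.034 after division by the median ratio. That of relatives of the factors went from -0.25 to 0.53 with a filter at 10 FPKM, which left RFX1, RFX2 and RFX5. For foregut and stomach genes it went from 0.18 to -0.15 with a filter at 1 FPKM in both libraries or at 10 FPKM, which left SOX2 alone. With no filter it was -0.044. Division by the median ratio raises every processed value above 0, and a filter changes which genes enter a median. No paired analysis was possible because each condition has 1 library, and for the same reason no replicate could be left out. The bounds of SOX17 and HNF4G overlapped between the libraries.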

Other observations

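For each factor, the genes of the other lists nearest to it in both libraries were found by the Euclidean distance of log2(FPKM + 1) over 2 samples, among 77 genes that reached an FPKM of 1. With 2 samples this measures likeness of level only. The closest was APOC3, an apolipoprotein gene, to CDX2, at a distance of 0.028 and with 14.4 FPKM in the live and 20.6 FPKM in the processed library. ISX, an intestinal homeobox gene, was nearest to HNF4G (3.87 and 3.65 FPKM, distance 0.062), NEUROG3 to FOXA3 (10.02 and 7.29 FPKM, 0.069) and the collagen gene COL3A1 to RFX6 (13.4 and 13.0 FPKM, 0.086). CER1, a secreted antagonist of early endoderm, was nearest to SOX17 (4.72 and 4.52 FPKM, 0.10), TFF3, a secreted trefoil peptide, to HNF4A (21.2 and 15.0 FPKM, 0.14), VIL1 to FOXA2 (0.15) and LIN28A to FOXA1 (0.16). The next nearest were MNX1 for CDX2, CER1 for HNF4G, TBX3 for FOXA3, PAX6 for RFX6, INSM1 for HNF4A, GATA4 for FOXA2 and GCG for FOXA1, at distances from 0.18 to 0.42.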
